A study of Homo sapiens with 24 samples.

Results

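Long noncoding and antisense RNAs were read from every probe whose annotated gene symbol starts with LINC, ends in -AS1, -AS2, -DT or -IT1, or is MALAT1, NEAT1, MEG3, H19, KCNQ1OT1, MIAT, PVT1 or TUG1. SNHG symbols, GAS5 and ZFAS1, which name snoRNA host genes, were left out. The rule found 573 probes for 479 symbols among the 47323 probes of an Illumina expression beadchip, and it used no measured value. Total RNA came from SKNMC, TC32, TC71 and RDES, established human lines of Ewing sarcoma, a tumour of bone and soft tissue in which a fusion of EWSR1 with an ETS gene is the usual driver. Cultures of each line received pladienolide B (PlaB) at 5 nM, or 0.1% DMSO as vehicle, and were taken after 24 h. That gives 8 groups of 3 arrays, 12 arrays with PlaB and 12 with vehicle. All 4 lines grew in the same medium and carry no engineered change that the labels mention, and each is an established tumour line, so results hold for these lines and this dose and time. The labels do not state whether replicates came from separate cultures. Each p-value therefore reflects the spread among replicate samples, which may be technical.

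PlaB binds the SF3b complex of the spliceosome, the part of the U2 particle that recognises the branch point of an intron. Most long noncoding RNAs are made by RNA polymerase II, capped, spliced and polyadenylated as mRNAs are, but many are spliced inefficiently, stay in the nucleus and are degraded there by the RNA exosome. Antisense RNAs run across a gene on its other strand, divergent transcripts start next to a gene's promoter and run away from it, and intronic transcripts lie within an intron of the host gene. In Ewing sarcoma cells the fusion protein binds repeats of the GGAA motif and acts on coding and noncoding genes.

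The promoters of the RNAs on which the results turn are shown first, as RefSeq gives them on GRCh38.p14, from 250 bases before to 50 bases after the annotated start. The first 3 belong to RNAs called in the same direction in all 4 lines, and capitals mark the first 50 transcribed bases. EPB41L4A-AS1 lies on chromosome 5 (chr5:112160276-112160575, plus strand), DHRS4-AS1 on chromosome 14 (chr14:23954148-23954447, minus strand) and LINC00339 on chromosome 1 (chr1:22025254-22025553, plus strand). None of these 3 windows holds CCAAT, the box bound by NF-Y, on either strand.
EPB41L4A-AS1: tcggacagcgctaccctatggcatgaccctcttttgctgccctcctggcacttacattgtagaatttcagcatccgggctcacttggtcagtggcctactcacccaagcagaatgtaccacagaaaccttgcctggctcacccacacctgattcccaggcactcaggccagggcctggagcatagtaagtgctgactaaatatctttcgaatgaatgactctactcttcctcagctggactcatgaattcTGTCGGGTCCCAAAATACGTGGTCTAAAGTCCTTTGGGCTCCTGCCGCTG
DHRS4-AS1: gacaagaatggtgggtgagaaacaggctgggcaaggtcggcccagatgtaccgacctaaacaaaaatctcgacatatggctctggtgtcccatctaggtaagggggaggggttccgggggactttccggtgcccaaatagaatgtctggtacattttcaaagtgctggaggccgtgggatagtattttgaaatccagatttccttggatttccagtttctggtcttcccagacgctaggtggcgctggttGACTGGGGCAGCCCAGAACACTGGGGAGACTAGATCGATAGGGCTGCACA
LINC00339: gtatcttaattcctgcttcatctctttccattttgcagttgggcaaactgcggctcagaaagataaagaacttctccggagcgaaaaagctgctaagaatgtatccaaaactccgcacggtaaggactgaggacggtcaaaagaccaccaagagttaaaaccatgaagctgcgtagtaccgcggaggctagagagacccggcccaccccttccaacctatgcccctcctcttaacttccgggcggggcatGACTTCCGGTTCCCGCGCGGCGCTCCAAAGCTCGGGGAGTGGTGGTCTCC

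The next 3 windows belong to head-to-head pairs in which the noncoding RNA and the coding gene start close together on opposite strands and were called in opposite directions in the mean of the lines. These opposite calls depended on the scaling of the arrays and did not always come from the same lines, as given below. Here capitals mark the bases between the start of the noncoding RNA and that of the coding gene. The starts lie 89 bases apart for ANKRD13C-DT and ANKRD13C (chr1:70354561-70354860, plus strand), 137 bases apart for FLVCR1-DT and FLVCR1 (chr1:212858089-212858388, minus strand) and 112 bases apart for HDHD5-AS1 and HDHD5 (chr22:17159139-17159438, plus strand). GC content was 64%, 72% and 74.7% in these windows, with 28, 39 and 46 CpG dinucleotides, in the same order. The windows of FLVCR1-DT and HDHD5-AS1 each hold 1 CCAAT, with both strands searched, and that of ANKRD13C-DT holds 0.
ANKRD13C-DT: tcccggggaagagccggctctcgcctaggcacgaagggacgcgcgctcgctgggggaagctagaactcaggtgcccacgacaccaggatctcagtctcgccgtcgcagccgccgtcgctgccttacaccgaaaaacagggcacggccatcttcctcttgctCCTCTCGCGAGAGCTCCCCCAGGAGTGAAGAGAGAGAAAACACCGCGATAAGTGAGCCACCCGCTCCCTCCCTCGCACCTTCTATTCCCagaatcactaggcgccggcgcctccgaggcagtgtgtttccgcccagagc
FLVCR1-DT: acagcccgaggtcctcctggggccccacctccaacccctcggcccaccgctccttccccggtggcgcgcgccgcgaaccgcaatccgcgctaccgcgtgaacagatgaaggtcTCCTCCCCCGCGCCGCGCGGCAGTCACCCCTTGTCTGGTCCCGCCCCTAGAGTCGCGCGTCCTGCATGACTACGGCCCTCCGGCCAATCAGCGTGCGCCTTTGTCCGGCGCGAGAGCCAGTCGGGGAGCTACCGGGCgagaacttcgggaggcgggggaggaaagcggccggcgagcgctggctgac
HDHD5-AS1: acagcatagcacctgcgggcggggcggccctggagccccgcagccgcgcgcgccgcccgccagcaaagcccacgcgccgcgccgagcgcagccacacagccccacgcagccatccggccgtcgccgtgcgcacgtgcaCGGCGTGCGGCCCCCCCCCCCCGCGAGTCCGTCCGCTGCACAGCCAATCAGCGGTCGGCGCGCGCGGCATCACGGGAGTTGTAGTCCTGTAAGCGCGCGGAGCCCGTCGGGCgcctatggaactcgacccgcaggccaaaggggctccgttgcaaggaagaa

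Most of these RNAs were at or below the detection limit in Ewing sarcoma cells. Of the 573 probes, 135 were detected on no array (detection p under 0.05), 419 on 1 to 23 arrays and 19 on all 24. A probe was tested if all 3 arrays of at least 1 group detected it. That left 114 probes for 105 symbols, or 19.9% of the noncoding RNA probes, against 37.1% of all probes (17557 of 47323). Tested were 49 antisense, 44 LINC, 10 divergent and 5 intronic probes and 6 of the 8 probes for RNAs listed by name. The tested noncoding RNA probes had a median level of 4.53 log2 intensity, against 5.33 for all tested probes, and 16.7% of them were detected on all 24 arrays, against 50.9%.

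PlaB arrays detected fewer noncoding RNA probes than vehicle arrays did in each line. The counts were 82 to 95 with PlaB against 116 to 117 with vehicle in SKNMC, and 85 to 91 against 111 to 123 in TC32. They were 92 to 113 with PlaB against 124 to 149 with vehicle in TC71, and 104 to 113 against 110 to 133 in RDES. The arrays of the 2 treatments did not overlap in SKNMC, TC32 and TC71, and overlapped in RDES. The differences between means were -22.9%, -24.9%, -25.6% and -9.72% in SKNMC, TC32, TC71 and RDES, beside -11.9%, -12%, -7.48% and -7.61% for all probes on the chip. The part of this loss of detection in the changes given below was not tested. In RNA from bulk cultures, fewer cells with an RNA and less of it per cell cannot be told apart. Among the tested noncoding RNA probes, 42 (36.8%) passed the filter in vehicle groups only and 10 (8.77%) in PlaB groups only, against 13.3% and 5.1% of all tested probes. The filter favoured a fall, without forcing it, in a probe that passed in vehicle groups only. Counts of falls over the tested probes are therefore descriptions.

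**Figure D1:**
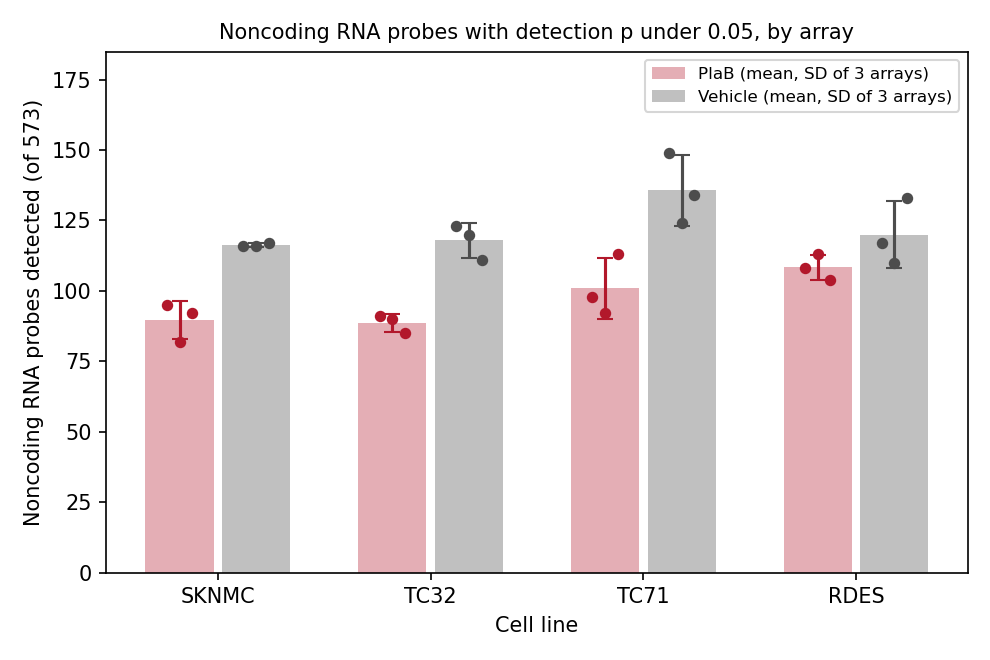
Noncoding RNA probes detected on each array (y axis, number of probes of 573 with detection p under 0.05) in the 4 lines (x axis). Points are arrays, bars are means and whiskers SDs of 3 arrays, with PlaB on the left and vehicle on the right. PlaB arrays lie between 82 and 113 and vehicle arrays between 110 and 149.

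In the mean of the 4 within-line differences, 24 noncoding RNA probes rose and 42 fell with PlaB, of 114 tested. The threshold was a limma p under 0.05 after Benjamini-Hochberg adjustment over all tested probes, of which 30.9% rose and 34.7% fell. In the setting used, the share that fell was near that background and the share that rose was below it, a difference that was not tested. The median change was -0.06 log2 for the noncoding RNA probes and -0.02 for all probes. By the brightest probe of each RNA, 23 rose and 38 fell of 105. Most changes were small, as among all tested probes: 1 noncoding RNA probe rose (PVT1) and 2 fell (DHRS4-AS1 and LINC00339) by more than 2-fold. Of all 17557 tested probes, 402 rose and 455 fell by 2-fold or more. Of the classes, 12 antisense probes rose and 21 fell of 49, 9 LINC probes rose and 12 fell of 44, and 0 divergent probes rose and 5 fell of 10. Of the 19 probes detected on all arrays, 11 rose and 7 fell, beside 3821 that rose and 3122 that fell among all 8942 such probes.

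The split between rises and falls depended on how arrays were scaled. Centring each array on its median shifted the overall median change by -0.12 log2, and 10 noncoding RNA probes then rose and 48 fell. Of all 17557 tested probes, 2914 rose and 8345 fell under that scaling. Centring on always-detected probes, those that every array detected, shifted the overall median by 0.15 log2, and 62 noncoding RNA probes rose and 21 fell. Of all tested probes 8455 then rose and 4528 fell, so the share of noncoding RNA probes that rose was not below background there. Cyclic loess gave 24 rises and 38 falls, beside 5408 and 6076 of all tested probes. Over the 6 scalings run, 10 probes were called up in every one and 21 down in every one, which is 8.77% and 18.4% of the noncoding RNA probes, against 16.6% and 25.2% of all probes. These 31 probes stand for 28 RNAs, which carry most of the account that follows. Of the 28, 23 passed the filter in groups of both treatments, 1 in vehicle groups only (VPS9D1-AS1) and 4 in PlaB groups only (FAM83A-AS1, LINC00926, LINC02878 and PSMD6-AS2), so the direction of these 5 was favoured by the filter.

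**Figure D2:**
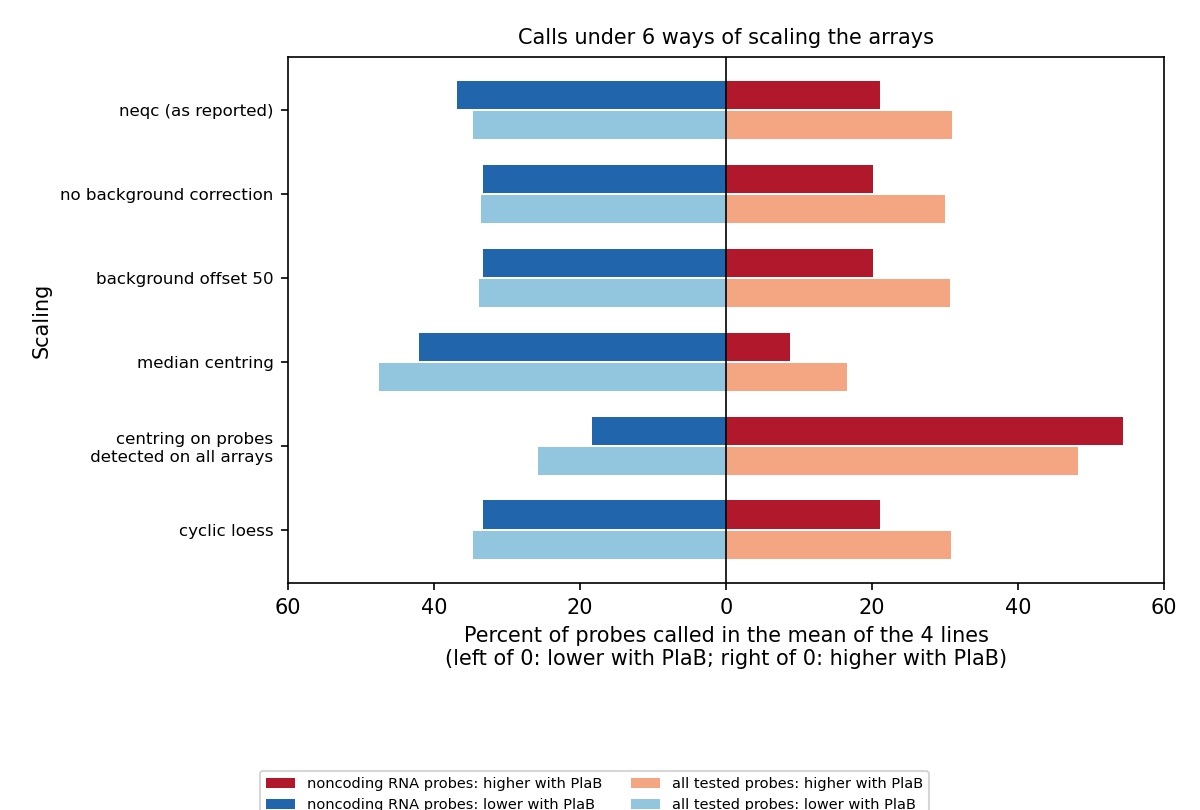
Percent of noncoding RNA probes and of all tested probes called higher (right of 0) or lower (left of 0) with PlaB in the mean of the 4 lines (x axis) under 6 ways of scaling the arrays (y axis). Under the setting used, 24 noncoding RNA probes were higher and 42 lower of 114, and the split turned to 62 higher and 21 lower when arrays were centred on always-detected probes.

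Within lines, calls were fewer. In SKNMC 16 noncoding RNA probes rose and 33 fell, against 24.9% and 27.9% of all tested probes. In TC32 9 rose and 21 fell, against a background of 19.3% and 21.6%. In TC71 15 rose and 21 fell, against 21.4% and 22.2%, and in RDES 12 rose and 18 fell, against 19.5% and 20.2%. In all, 81 of the 114 probes were called in at least 1 line (background 76.6%), 44 of them in exactly 1 (background 26.1%), and 30 in no line and not in the mean (background 20.7%). Calls in all 4 lines were rare: 1 probe rose in each line (background 8.58%) and 9 fell in each (background 8.5%). With PlaB arrays all above vehicle arrays in every line there were 2 probes (background 9.13%), for EPB41L4A-AS1 and LINC00926, and with all below in every line 8 probes (background 9.45%).

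EPB41L4A-AS1, the host of the small nucleolar RNA SNORA13 in an intron, was the RNA that rose in all 4 lines. Its log2 intensity in SKNMC was 7.64, 7.77 and 7.65 on PlaB arrays, against 6.77, 6.62 and 6.44 on vehicle arrays. In TC32 it was 7.53, 7.20 and 6.98 with PlaB, against 6.59, 6.56 and 6.09 with vehicle. In TC71 it was 6.49, 6.18 and 6.37 with PlaB, against 5.57, 5.49 and 5.76, and in RDES 7.38, 7.13 and 7.45 with PlaB, against 6.77, 6.41 and 6.53. The groups did not overlap in any line. The rises were 1.08, 0.83, 0.74 and 0.75 log2 in SKNMC, TC32, TC71 and RDES, with a mean of 0.85 ± 0.07 (SE; limma adjusted p = 8e-12). The F-test did not call a difference between lines (limma adjusted p = 0.41). Under median centring the TC32 rise was 0.43 and not called (limma adjusted p = 0.063), and the calls in the mean held under all 6 scalings.

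DHRS4-AS1, an antisense RNA which in human cells has been described to act on the DHRS4 gene cluster it overlaps, had the largest mean fall of the noncoding RNAs in the setting used. In SKNMC it was 4.26, 4.30 and 4.61 with PlaB, against 5.71, 6.08 and 5.52 with vehicle. In TC71, where all arrays detected it, it was 5.37, 5.56 and 5.21 with PlaB, against 6.68, 6.76 and 6.69 with vehicle. The PlaB arrays lay below the vehicle arrays in all 4 lines. In TC32 and RDES no PlaB array detected it, and it was at least 2.69-fold lower and at least 1.96-fold lower than in vehicle cells (means of 4.35 against 5.90 and of 4.27 against 5.39 log2; limma adjusted p = 3.7e-11 and 1.7e-08). Here and below, such a bound sets the brighter group against the lowest signal that arrays of the dim group detected. The fitted falls were 1.38, 1.55, 1.33 and 1.13 log2 in SKNMC, TC32, TC71 and RDES, with a mean of -1.35 ± 0.06 (limma adjusted p = 8.9e-18). A dimmer probe for the same RNA, detected on 8 arrays, had a mean change of -0.06 ± 0.07 (limma adjusted p = 0.49). The 2 probes thus disagreed, and which transcript each reads is not given in the sources used here.

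LINC00339, an intergenic RNA detected on all 24 arrays, fell in each line on all 3 of its probes. Its brightest probe in SKNMC stood at 4.95, 4.77 and 4.89 with PlaB, against 6.31, 6.71 and 6.46 with vehicle. In TC32 it stood at 5.39, 5.23 and 5.57 with PlaB, against 6.12, 6.27 and 6.05. In TC71 the values were 5.67, 5.69 and 5.68 with PlaB, against 6.88, 6.85 and 6.80, and in RDES 5.73, 5.87 and 5.88 with PlaB, against 6.91, 6.86 and 7.03. No PlaB array reached a vehicle array of its line. The mean change was -1.16 ± 0.05 on this probe (limma adjusted p = 1.2e-17), and -0.77 ± 0.07 and -0.59 ± 0.06 on the dimmer ones. The fall was deepest in SKNMC, at -1.62, and least in TC32, at -0.75, and the F-test called the difference between lines (limma adjusted p = 0.00051).

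Further RNAs fell in all 4 lines, with a smaller mean change. MRPL20-AS1, next to the gene of a mitochondrial ribosomal protein, was 6.94, 6.75 and 6.76 with PlaB in SKNMC, against 8.38, 8.47 and 8.43 with vehicle. In TC32 it was 6.92, 6.88 and 6.97 with PlaB, against 7.24, 7.25 and 7.55. The fall was 1.61 log2 in SKNMC and 0.43, 0.57 and 0.60 in TC32, TC71 and RDES, and SKNMC differed from each other line (differences of -1.18, -1.04 and -1.01 log2; limma adjusted p = 6.6e-07, 7.2e-06 and 9.2e-06). LINC00294 was 5.07, 5.43 and 5.27 with PlaB in SKNMC, against 6.40, 6.44 and 6.40 with vehicle, and its mean change was -0.69 ± 0.06 (limma adjusted p = 2.1e-11). PPP3CA-DT, divergent from the gene of a calcineurin catalytic subunit, had a mean change of -0.51 ± 0.06. That of FLVCR1-DT, divergent from a choline and haem transporter gene, was -0.49 ± 0.05. VPS9D1-AS1 changed by -0.80 ± 0.07 and was called in each line, but in RDES its arrays overlapped, at 4.30, 4.29 and 4.17 with PlaB against 4.80, 4.30 and 5.09 with vehicle. No PlaB array detected it in SKNMC or RDES, where it was at least 1.43-fold and at least 1.24-fold lower than in vehicle cells (means of 4.23 against 5.00 and of 4.26 against 4.73 log2; limma adjusted p = 2.7e-05 and 0.0073).

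**Figure D3:**
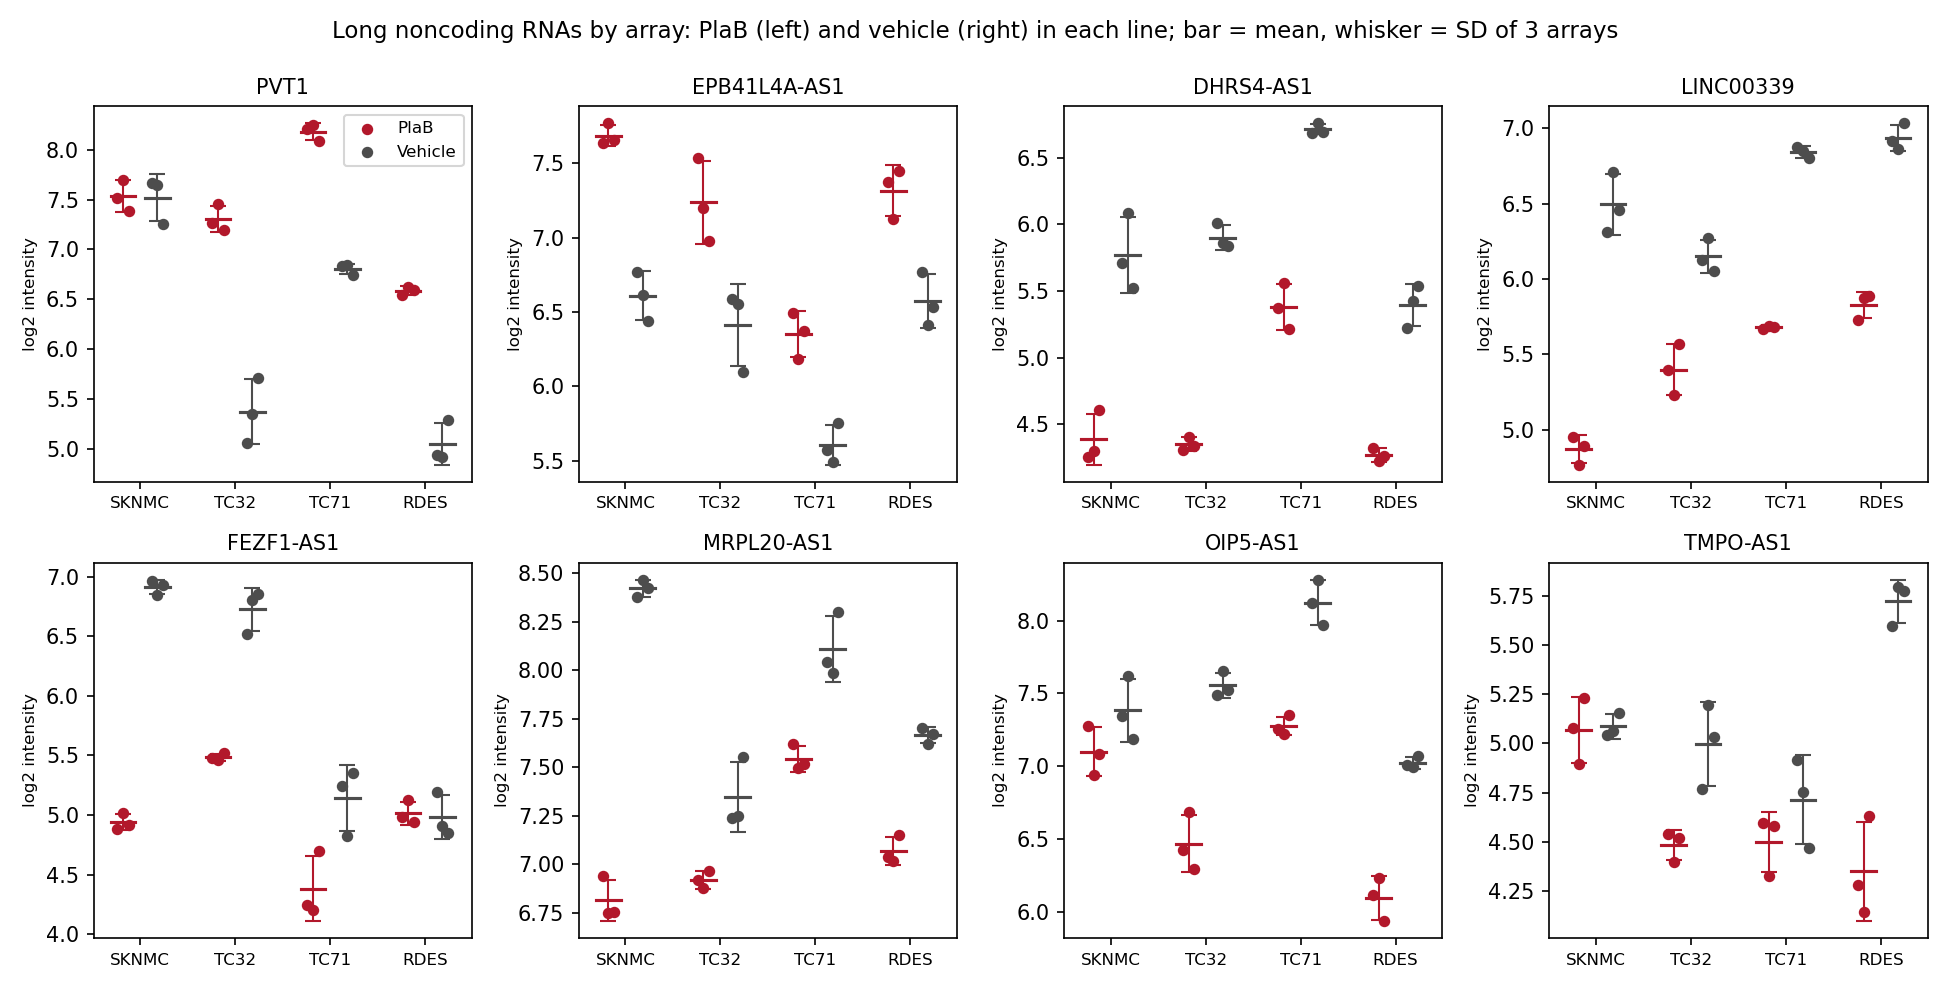
Normalized log2 intensity (y axis) of 8 noncoding RNAs on every array of the 4 lines (x axis), with PlaB points on the left and vehicle points on the right of each line, means as bars and SDs of 3 arrays as whiskers. EPB41L4A-AS1 is higher with PlaB and DHRS4-AS1, LINC00339 and MRPL20-AS1 are lower in every line without overlap, whereas PVT1 does not separate in SKNMC, FEZF1-AS1 does not separate in RDES and TMPO-AS1 falls most in RDES.

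The response differed between lines for 50 of the 114 noncoding RNA probes (moderated F-test, adjusted p under 0.05), against 42.4% of all tested probes. PVT1, which lies downstream of MYC and hosts several microRNAs, rose in 3 lines and had the largest mean rise of the noncoding RNAs in the setting used. It was 7.27, 7.45 and 7.20 with PlaB in TC32, against 5.06, 5.35 and 5.70 with vehicle. In TC71 it was 8.20, 8.25 and 8.09 with PlaB, against 6.83, 6.84 and 6.75, and in RDES 6.54, 6.63 and 6.59 with PlaB, against 4.94, 4.92 and 5.29. In SKNMC the arrays overlapped, at 7.51, 7.70 and 7.38 with PlaB and 7.66, 7.64 and 7.25 with vehicle. The changes were 0.01, 1.93, 1.38 and 1.53 log2 in SKNMC, TC32, TC71 and RDES, and SKNMC minus each other line in that order was -1.92, -1.37 and -1.52 log2 (limma adjusted p = 1.4e-08, 6.9e-06 and 1.2e-06). In vehicle cells PVT1 averaged 7.52 log2 in SKNMC and 5.37, 6.81 and 5.05 in TC32, TC71 and RDES, so the line without a called change had the highest vehicle level.

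FEZF1-AS1, antisense to a zinc finger repressor gene of the developing forebrain, fell in 3 lines and differed most between lines by the F-test (limma adjusted p = 2.4e-08). In SKNMC it was 4.89, 5.01 and 4.91 with PlaB, against 6.97, 6.85 and 6.93 with vehicle. In TC32 it was 5.48, 5.46 and 5.52 with PlaB, against 6.52, 6.80 and 6.85, and in TC71 4.25, 4.21 and 4.70 with PlaB, against 5.25, 4.83 and 5.35. In RDES the groups overlapped, at 4.98, 5.12 and 4.94 with PlaB and 5.20, 4.91 and 4.85 with vehicle. The changes were -1.98, -1.24, -0.76 and 0.03 log2 in SKNMC, TC32, TC71 and RDES, and SKNMC and RDES differed by -2.00 ± 0.19 (limma adjusted p = 7.1e-09). In vehicle cells it averaged 6.92, 6.72, 5.14 and 4.99 log2 in the same order of lines, so the largest fall was in the line with the highest vehicle level.

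OIP5-AS1, the conserved RNA also called Cyrano, which in mouse directs the destruction of the microRNA miR-7, was 6.43, 6.68 and 6.30 with PlaB in TC32, against 7.49, 7.65 and 7.52 with vehicle. In RDES it was 6.12, 6.24 and 5.94 with PlaB, against 7.01, 6.99 and 7.07. It fell in TC32, TC71 and RDES by 1.09, 0.85 and 0.93 log2 and had a change of -0.28 in SKNMC (limma adjusted p = 0.052). TMPO-AS1, at the promoter of a nuclear lamina gene, was 4.28, 4.14 and 4.63 with PlaB in RDES, against 5.60, 5.80 and 5.77 with vehicle. Its change was -1.37 in RDES and -0.51 in TC32, both called, and -0.02 and -0.21 in SKNMC and TC71, not called. Its dimmer probe fell in RDES too, at -0.83 (limma adjusted p = 3.4e-06).

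Other falls were called in 1 or 2 lines. HAND2-AS1, the partner of a heart and limb transcription factor gene, was 4.66, 5.02 and 4.59 with PlaB in TC32, against 5.71, 6.32 and 6.18 with vehicle. That fall was 1.31 log2 (limma adjusted p = 2.6e-09), while the changes in SKNMC, TC71 and RDES lay between -0.17 and 0.04. No array of either group detected it in SKNMC. Its other probe fell in TC32 as well, by 0.58 log2. FGF14-AS2 was 4.88, 4.81 and 5.03 with PlaB in TC71, against 5.95, 5.93 and 5.87 with vehicle, a fall of 1.01 log2 (limma adjusted p = 1.3e-08), and its changes in SKNMC, TC32 and RDES were -0.17, -0.20 and -0.18 and not called. LINC02783 was detected on all 3 vehicle arrays and no PlaB array of TC71, where it was at least 1.63-fold lower with PlaB (means of 4.29 against 5.11 log2; limma adjusted p = 4.1e-07). It passed the filter through that vehicle group alone, which favoured a fall. LINC00205, LINC00623, LINC00938 and LINC02593 fell in SKNMC, by 0.88, 0.76, 0.73 and 0.95 log2, and were not called in the other lines. ASAP1-IT1, from an intron of an ARF GTPase-activating protein gene, fell by 0.85 log2 in TC32 alone of the 4 lines by its calls, and CD27-AS1 fell in TC32 and TC71, by 0.40 and 0.77.

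The other RNAs that rose under all 6 scalings had a smaller mean rise than PVT1 and EPB41L4A-AS1. FAM83A-AS1 was 5.29, 5.48 and 5.37 with PlaB in TC71, against 4.21, 4.49 and 4.18 with vehicle, and rose there by 1.08 log2 (limma adjusted p = 8.5e-08). In SKNMC all 3 PlaB arrays and no vehicle array detected it, and it was at least 1.44-fold higher with PlaB (means of 4.92 against 4.14 log2; limma adjusted p = 9.3e-06). In RDES no array of either treatment detected it. MORC2-AS1 rose in TC32, TC71 and RDES by 0.64, 0.71 and 0.61 log2 and had a change of 0.09 in SKNMC, where its PlaB arrays at 4.98, 4.37 and 5.26 spanned its vehicle arrays at 4.91, 4.75 and 4.68. PSMD6-AS2 was detected on all PlaB arrays and no vehicle array of SKNMC and of TC71, and was at least 1.42-fold and at least 1.49-fold higher with PlaB there (means of 4.91 against 4.33 and of 4.95 against 4.24 log2; limma adjusted p = 0.00036 and 4.4e-05). LINC00926, LINC01119, LINC01311, LINC02878 and BIN3-IT1 rose in the mean by 0.33, 0.31, 0.26, 0.35 and 0.28 log2.

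**Figure D4:**
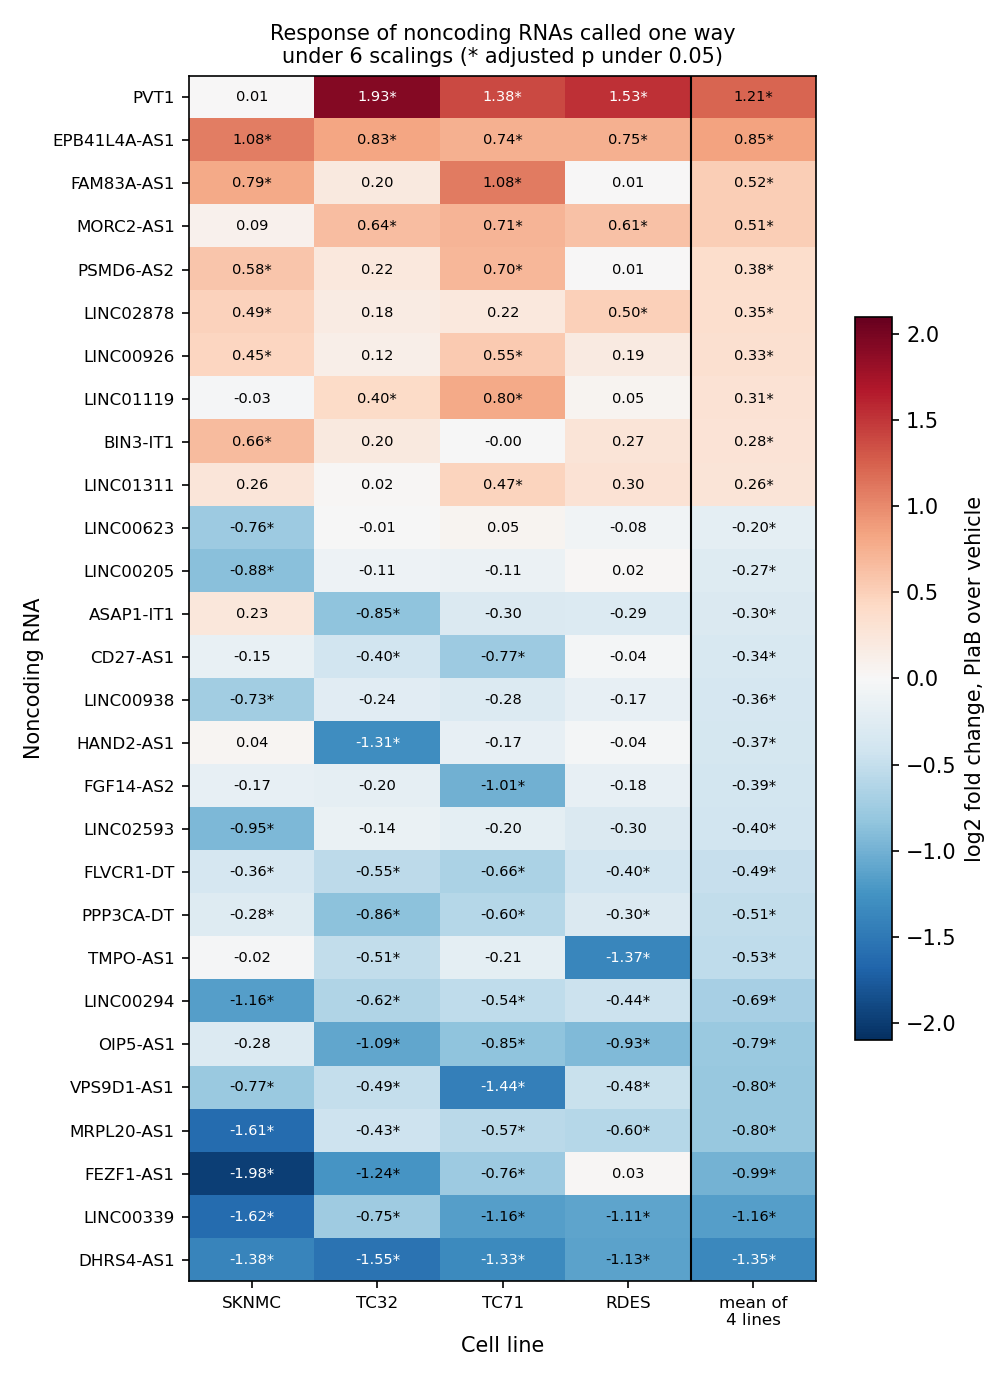
Log2 fold change, PlaB over vehicle (colour and printed number), of the 28 noncoding RNAs called in one direction under all 6 scalings (rows, brightest probe) in each line and in the mean of the 4 lines (columns), with a star where the adjusted p was under 0.05. EPB41L4A-AS1 is starred as higher and DHRS4-AS1, LINC00339, MRPL20-AS1, VPS9D1-AS1, LINC00294, PPP3CA-DT and FLVCR1-DT as lower in all 4 lines.

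Of the RNAs listed by name, several are abundant in other tissues and were dim or unread here. MALAT1, an unspliced RNA of nuclear speckles, had 1 probe that no array detected, and H19, an imprinted fetal RNA, 1 probe that 1 vehicle array of TC71 detected. No probe carried the symbol NEAT1, the scaffold of paraspeckles. TUG1 was bright, at a mean of 9.43 log2 over all arrays, and rose by 0.18 ± 0.06 in the mean (limma adjusted p = 0.011), but stood at 0.02 with adjusted p = 0.80 under median centring. In TC32, its called line, it was 9.12, 9.50 and 9.45 with PlaB, against 8.90, 8.98 and 9.00 with vehicle. RefSeq lists TUG1 as protein coding and 569 of the other probes as noncoding or antisense RNA.

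MEG3, an imprinted RNA of the DLK1 locus, was high in SKNMC alone of the 4 lines, at 7.02, 6.69 and 6.85 with PlaB and 7.20, 7.29 and 7.97 with vehicle. It fell there by 0.63 log2 on its brightest probe (limma adjusted p = 0.00071), whereas its dimmer probe had a change of 0.33 (limma adjusted p = 0.054). Its mean change of -0.21 was not called under cyclic loess, at -0.11, or under centring on always-detected probes, at -0.08. KCNQ1OT1, the unspliced imprinted antisense RNA of KCNQ1, was detected on all vehicle arrays and no PlaB array of SKNMC, where it was at least 1.18-fold lower with PlaB (means of 4.23 against 4.73 log2; limma adjusted p = 0.00094). MIAT, whose repeats bind the branch point protein SF1, was likewise at least 1.1-fold lower in SKNMC (means of 4.15 against 4.63 log2; limma adjusted p = 0.00031). Both RNAs passed the filter in vehicle groups only, which favoured these falls. Neither fall was called under centring on always-detected probes (-0.18 with adjusted p = 0.28 for KCNQ1OT1 and -0.13 with adjusted p = 0.41 for MIAT), where their mean changes turned to 0.08 and 0.15.

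Detection on every array of one treatment and none of the other in a line was seen for 9 PlaB cases and 28 vehicle cases, counted as RNA and line together. With every tested probe counted, rather than the brightest of each RNA, there were 9 and 32 cases of 456 noncoding RNA probes and lines. That is 1.97% and 7.02%, against 0.773% and 3.18% for all probes. The tested noncoding RNA probes were dimmer than all tested probes, and probes of matched level were not compared. Of the 9 PlaB cases 7 were called, and of the 28 vehicle cases 19. The cases were picked by detection on the same arrays that gave the calls, so these counts are descriptions. Several, such as MCM3AP-AS1 and PAX8-AS1, passed the filter in vehicle groups only, which favoured their falls. The share called among all probes picked in this way is not given here. The RNAs without a call were DCTN1-AS1 in TC71 and LINC01311 in RDES with PlaB, and with vehicle ANKRD13C-DT, FGF14-AS2 and RUSC1-AS1 in SKNMC, GNAS-AS1, LINC00173 and PAX8-AS1 in TC32, FOXD2-AS1 and TAPT1-AS1 in TC71 and STX18-AS1 in RDES. In SKNMC 14 RNAs were seen with vehicle alone, among them MCM3AP-AS1, PAX8-AS1, ZBTB11-AS1, LINC01252, LINC01547, LINC02731, MAPT-IT1, RUSC1-AS1 and ZNF606-AS1. ANKRD13C-DT has no bound above 1 there, and the bounds of the other SKNMC cases ran from at least 1.01-fold for MAPT-IT1 to at least 1.43-fold for VPS9D1-AS1. In TC71 8 were seen with vehicle alone, including EIF3J-DT, FOXD2-AS1, LINC01550, STX18-AS1 and TAPT1-AS1. TC32 had 4 (DHRS4-AS1, GNAS-AS1, LINC00173 and PAX8-AS1) and RDES 2 (DHRS4-AS1 and STX18-AS1). The PlaB cases were FAM83A-AS1, LINC02076 and PSMD6-AS2 in SKNMC, LINC01119 in TC32, DCTN1-AS1, LINC00926 and PSMD6-AS2 in TC71, and LINC01311 and LINC02878 in RDES. LINC02076 rose in SKNMC, at least 1.36-fold (limma adjusted p = 0.00042), and was not called in the other lines, with -0.26, -0.19 and -0.29 in TC32, TC71 and RDES.

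Where an RNA had several probes they did not always give 1 answer. LINC01278 rose in RDES on both probes, by 0.83 and 0.63 log2, while in SKNMC its brightest probe stood at -0.07 and the other fell by 0.50 (limma adjusted p = 0.00051). Its mean rise of 0.35 on the brightest probe was 0.04 and not called under median centring (limma adjusted p = 0.58). In all, 3 probes were called in opposite directions in 2 lines, for LINC01278, PAXIP1-DT and RAMP2-AS1. ZNF667-AS1 was 6.50, 6.27 and 6.46 with PlaB in TC32, against 5.79, 5.58 and 5.81 with vehicle, a rise of 0.68 log2 that was 0.29 and not called under median centring (limma adjusted p = 0.09). In TC71 no array detected it, at 4.25 to 4.31 with PlaB and 4.27 to 4.32 with vehicle.

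Antisense, divergent and intronic RNAs were set beside the gene in their name. Such a symbol was held by 60 RNAs, and 49 of the named genes had a tested probe. Both were called in the mean for 20 pairs, 15 in the same direction (6 up, 9 down) and 5 in opposite directions. Of all tested probes 30.9% rose and 34.7% fell, and the share of pairs in the same direction was not tested. Among pairs in the same direction, the filter favoured the falls of GNAS-AS1, MAPT-IT1, RUSC1-AS1 and VPS9D1-AS1, which passed in vehicle groups only. It favoured the rise of PSMD6-AS2, which passed in PlaB groups only. In 13 pairs the noncoding RNA alone was called, in 11 the coding gene alone and in 5 neither. These counts too moved with the scaling: no pair was called in opposite directions under median centring (16 pairs in the same direction), and 10 were under centring on always-detected probes (15 in the same direction). Both members of a pair are read on the same arrays, and whether probes read only their own strand was not tested.

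Among pairs that fell together, DHRS4-AS1 stood beside DHRS4, a retinal reductase gene, which changed by -1.25 ± 0.06 (limma adjusted p = 4.6e-17) and fell in each line. OIP5, a centromere protein gene, changed by -1.67 ± 0.06 (limma adjusted p = 2.1e-20), with falls of 2.00 and 2.11 log2 in SKNMC and TC71, where OIP5-AS1 stood at -0.28 and -0.85. MAPT, the gene of the microtubule protein tau, changed by -1.51 ± 0.06. MAPT-IT1 in its intron stood at -0.21 and was detected on 6 arrays, all of them vehicle arrays, so the filter favoured its fall. PPP3CA stood at -0.44 beside -0.51 for PPP3CA-DT, and HAND2 at -0.22 beside -0.37 for HAND2-AS1. Among pairs that rose together, MORC2, a chromatin ATPase gene, changed by 0.72 beside 0.51 for MORC2-AS1, PSMD6, a proteasome subunit gene, by 0.37 beside 0.38 for PSMD6-AS2, BIN3 by 0.58 beside 0.28 for BIN3-IT1 and EPB41L4A by 0.27 beside 0.85 for EPB41L4A-AS1. Over the 6 scalings, EPB41L4A lost its call under median centring, MAPT-IT1 stood at 0.03 under centring on always-detected probes, and the others of these pairs kept both calls.

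The 4 pairs with a lower noncoding RNA and a higher coding gene were ANKRD13C-DT (-0.34 and 0.36), FLVCR1-DT (-0.49 and 0.19), HDHD5-AS1 (-0.18 and 0.33) and TMPO-AS1 (-0.53 and 0.31), with the noncoding RNA's mean change before the coding gene's. The opposite means did not always come from the same lines. ANKRD13C-DT fell in RDES by 0.82 log2, where ANKRD13C stood at 0.14. ANKRD13C was highest in SKNMC, at 0.64, where ANKRD13C-DT stood at -0.23 and was not called. TMPO-AS1 fell most in RDES, where TMPO stood at 0.12, and TMPO was highest in SKNMC, at 0.51, with TMPO-AS1 at -0.02. In TC32 FLVCR1-DT stood at -0.55 and FLVCR1 at 0.48, and in RDES HDHD5-AS1 stood at -0.22 and HDHD5 at 0.54. FLVCR1-DT in TC71 was 5.98, 5.89 and 5.89 with PlaB, against 6.59, 6.66 and 6.47 with vehicle. FLVCR1-DT and TMPO-AS1 fell under all 6 scalings, whereas HDHD5-AS1 ran from -0.20 to 0.07 over them. HDHD5-AS1 passed the filter in vehicle groups only, which favoured its fall. None of the 4 coding genes was called up under median centring. FLVCR1, at a mean of 4.43 log2 and detected on 11 arrays, was not called without background correction or with an offset of 50 either. FARSA-AS1 rose by 0.18 in the mean, and FARSA, a phenylalanyl-tRNA synthetase gene, fell by 0.16. FARSA-AS1 was highest in TC32, at 0.41 with FARSA at 0.11, and FARSA was lowest in SKNMC, at -0.48 with FARSA-AS1 at 0.14. FEZF1, at -0.08 beside -0.99 for FEZF1-AS1, and MRPL20, at -0.07 beside -0.80 for MRPL20-AS1, were not called in the mean, but both were called down under median centring. FEZF1 stood at 0.36 in SKNMC and -0.56 in TC32. MRPL20 stood at -0.51 in SKNMC, the line with the largest fall of MRPL20-AS1, and at 0.37 in TC32, and 1 of its 2 probes was called down in the mean.

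**Figure D5:**
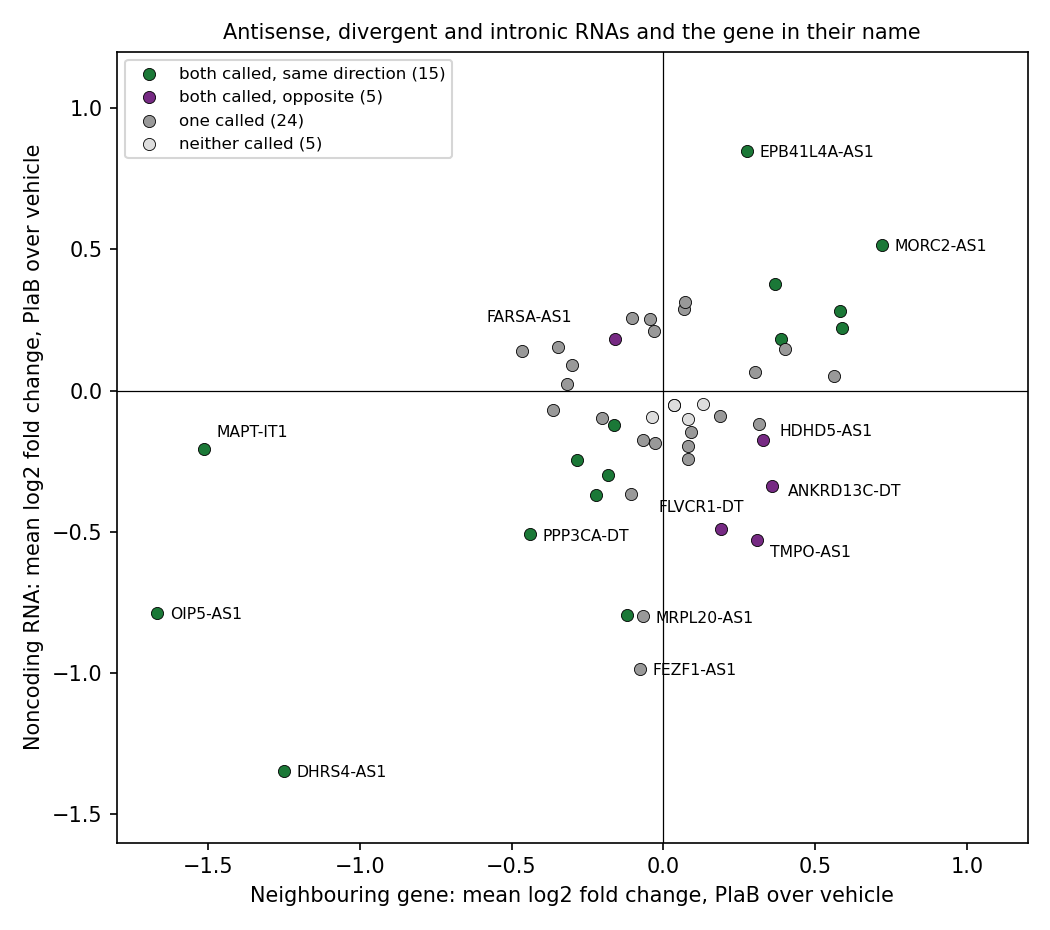
Mean log2 fold change, PlaB over vehicle, of 49 antisense, divergent and intronic RNAs (y axis) against that of the gene in their name (x axis), each point a pair and its colour the calls. Both were called in the same direction in 15 pairs and in opposite directions in 5, of which TMPO-AS1, FLVCR1-DT, ANKRD13C-DT and HDHD5-AS1 lie at the lower right.

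RefSeq starts placed 43 of the 60 RNAs with such a symbol relative to their gene. For 21 the starts lay within 1000 bases on opposite strands, and 3 of these rose and 11 fell. Both partners were called in 7 of them, 3 in the same direction. For another 21 the starts lay farther apart on opposite strands, and 5 rose and 10 fell, with 5 of 6 doubly called pairs in the same direction. Of the 17 RNAs that were not placed, 5 rose and 5 fell, and all 7 doubly called pairs among them were in the same direction. Of all tested probes, 30.9% rose and 34.7% fell. Some falls in both placed sets, such as those of HDHD5-AS1 and PAX8-AS1, were of RNAs that passed the filter in vehicle groups only. Whether the distance between starts bears on the response was not tested. DHRS4-AS1 and DHRS4 start 427 bases apart, TMPO-AS1 and TMPO 636, HAND2-AS1 and HAND2 229, while OIP5-AS1 starts 48601 bases from OIP5 and EPB41L4A-AS1 258751 bases from EPB41L4A. RefSeq promoters were found for 75 of the 105 tested RNAs, with a median GC content of 62.7%, against 58.7% for all 35116 promoters, and a median of 22 CpG dinucleotides, against 14. CCAAT, searched on both strands, was found in 29.3% of them, against 34.6% of all. It was in 1 of 12 promoters of RNAs that rose, 12 of 32 of those that fell and 9 of 31 of those not called, differences that were not tested. GGAAGGAA, a pair of adjoining GGAA repeats searched on both strands, was in 0 of the 75 and in 3.67% of all promoters of the same length. A match is a description and not a binding site, and its absence says only that these letters are not in the window.

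Genes whose proteins build paraspeckles or degrade nuclear noncoding RNA were called in both directions, as all tested probes were (30.9% up and 34.7% down). Of 22 tested paraspeckle genes, 7 rose and 7 fell in the mean, shares near that background, with a median of -0.07 log2. TARDBP, which binds NEAT1, rose by 0.93 ± 0.05 and SRSF10 by 0.59, while CIRBP, the cold-inducible RNA-binding protein, fell by 1.18 ± 0.06, the chromatin remodeller gene SMARCA4 by 0.97, TAF15, a relative of EWSR1, by 0.89 and HNRNPH3 by 0.63. Of 21 tested genes of nuclear RNA decay, 10 rose and 7 fell, with a median of 0.01. ZCCHC8, a scaffold of the complex that feeds short nuclear transcripts to the exosome, rose by 1.12 ± 0.06, the cap-binding subunit gene NCBP2 by 0.79 and SRRT, which links the cap to decay, by 0.58, while the exosome subunit genes EXOSC7, EXOSC1 and EXOSC2 fell by 0.99, 0.60 and 0.59. These genes kept their calls under all 6 scalings. Under median centring the counts became 4 and 12 for paraspeckle genes and 6 and 11 for decay genes, rises before falls. Of all 17557 tested probes, 2914 rose and 8345 fell under that scaling. Beside these, 8 of 10 markers of Ewing sarcoma fell in the mean with PlaB, and each group detected at least 8 of them on all its arrays. On all 3 arrays of a group 0 or 1 of 5 endothelial markers, 0 to 2 of 6 epithelial markers, 1 or 2 of 5 blood-cell markers and 3 to 6 of 6 fibroblast and mesenchymal markers were detected. Of these last 6, 5 fell in the mean and TAGLN rose, by 1.40 log2. Of 3 tested blood-cell markers 2 rose and 1 fell, and of 2 tested endothelial markers 1 rose and 1 fell. Of 3 tested epithelial markers 1 rose and 0 fell.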

How the data were processed

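Probe signals of 24 Illumina beadchips were analysed. The deposited table holds, per the file headers, a linear probe intensity per array, without normalization or background subtraction (from 56.3 to 8895), and a detection p-value beside each intensity. The deposited series matrix holds log2 values. It matched intensities quantile-normalized within a line for 99.996% of probes in TC32 (tolerance 0.03 log2) and for 36.4%, 75.2% and 36.4% in SKNMC, TC71 and RDES, so it served only as an alternative in TC32. GenomeStudio, lumi and R 3.0.2 are named, without their steps, per the submitters' processing notes. The sources used here give no chip position, probe sequence or genome build, and the number of arrays limits the precision.

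Normalization and tests used limma 3.58.1 in R 4.3.3 (neqc: background from detection p, offset 16, quantile normalization, log2). Probes detected at p under 0.05 on all 3 arrays of at least 1 group were kept. A group-means model of the 8 groups was fitted to all arrays, and variances were moderated by eBayes (13.4 prior and 16 residual degrees of freedom). Contrasts were PlaB minus vehicle in each line, their mean, and a moderated F-test with pairwise differences between lines. Two-sided p-values were adjusted by Benjamini-Hochberg over 17557 probes and called under 0.05. The scripts were tested on simulated data. Symbols came from the platform annotation: 30112 probes had 1 symbol, 8 several and 17203 none. Of the 573 noncoding RNA probes, 570 matched the same symbol in RefSeq (GRCh38.p14). An RNA is read from its brightest tested probe.

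The noncoding RNAs and the lists of 24 paraspeckle and 25 nuclear RNA decay genes were chosen with earlier results of these data known. Named were the listed RNAs, the RNAs with the largest calls in the mean (same side on all arrays of each line) and in each line, the 8 smallest F-test p-values, the RNAs detected on all arrays of one treatment and none of the other, the gene in each symbol, and at most 6 genes per list by size of the mean change. RNAs called in one direction under all 6 scalings, and those whose probes disagreed, were added after their values were seen. Samples of the same replicate number did not deviate together (correlations -0.041 to 0.0535 over 12 pairs), so no pairing was used.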

Additional observations from a re-analysis of the deposited data

Results flagged for a closer look

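Named RNAs were put here because the moderated F-test called a difference in their PlaB response between the 4 lines (limma adjusted p). There were 28, and no group has enough arrays to be examined for an array that stands apart. The smallest p-values were those of FEZF1-AS1 (2.4e-08), PVT1 (4.5e-08), MRPL20-AS1 (7e-07), HAND2-AS1 (2.4e-06) and TMPO-AS1 (6.5e-06), whose values are given above. Next came LINC02783 (8.2e-05), FAM83A-AS1 (9.1e-05), FGF14-AS2 (0.00011), LINC00339 (0.00051), LINC01119 (0.00062) and VPS9D1-AS1 (0.00065). LINC01119 was 5.39, 5.18 and 5.23 with PlaB in TC71, against 4.48, 4.48 and 4.45 with vehicle, and its changes were -0.03, 0.40, 0.80 and 0.05 log2 in SKNMC, TC32, TC71 and RDES. VPS9D1-AS1 fell most in TC71, by 1.44 log2.

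LINC02076 (0.00081) rose in SKNMC, at 4.97, 5.01 and 4.54 with PlaB against 4.26, 4.14 and 4.37 with vehicle, and had changes below 0 in the other lines that were not called. LINC01278 (0.001), ZNF667-AS1 (0.0021), OIP5-AS1 (0.0023), ANKRD13C-DT (0.0025), MIAT (0.0046), LINC00294 (0.005), PSMD6-AS2 (0.0083) and PPP3CA-DT (0.01) followed. ANKRD13C-DT fell in RDES by 0.82 log2 and was not called in the other lines, with -0.23, -0.08 and -0.22 in SKNMC, TC32 and TC71.

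The others were MAPT-IT1 (0.011), KCNQ1OT1 (0.02), LINC01547 (0.021), ZNF674-AS1 (0.03), GNAS-AS1 (0.038), MCM3AP-AS1 (0.038), BIN3-IT1 (0.041) and MEG3 (0.048). Each of these was called in SKNMC: MAPT-IT1, KCNQ1OT1, LINC01547, GNAS-AS1, MCM3AP-AS1 and MEG3 fell there, and ZNF674-AS1 and BIN3-IT1 rose. Of those that fell, all but MEG3 passed the filter in vehicle groups only, which favoured a fall. Under centring on always-detected probes MAPT-IT1, KCNQ1OT1, LINC01547 and MCM3AP-AS1 lost their SKNMC calls, at 0.0686, -0.18, 0.000279 and -0.18. ZNF674-AS1 was 5.31, 5.08 and 5.39 with PlaB in SKNMC, against 4.71, 4.48 and 4.48 with vehicle, and its changes were 0.34, -0.09 and 0.30 in TC32, TC71 and RDES. BIN3-IT1 was 5.07, 5.16 and 5.48 with PlaB in SKNMC, against 4.43, 4.73 and 4.59 with vehicle.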

How the results depend on the processing

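Counts of noncoding RNA probes called stayed within 1.5 times under no background correction, an offset of 50, cyclic loess, detection p under 0.01, no filter on dim probes, each line fitted alone, the series matrix values in TC32 and the replicate block. Leaving out single arrays gave 22 to 27 rises and 39 to 43 falls in the mean, 12 to 19 rises and 26 to 32 falls in SKNMC, and 45 to 52 probes with a response that differed between lines. With the replicate block the mean had 25 rises and 41 falls, and 1 named call was lost (RUSC1-AS1, -0.12, limma adjusted p = 0.051).

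Median centring gave 8 rises in SKNMC, 3 in TC32 and 10 in the mean, where 2914 of all 17557 tested probes rose. Centring on always-detected probes gave 45 rises and 16 falls in SKNMC, 35 rises in TC32, and 62 rises and 21 falls in the mean. Of all tested probes, 8455 then rose and 4528 fell in the mean. Keeping only noncoding RNA probes detected on all arrays, a choice made after seeing the data that leaves 19 probes, gave 6 rises and 6 falls in SKNMC, 5 and 7 in TC32, 6 and 4 in TC71, 7 and 4 in RDES, 11 and 7 in the mean, and 14 with a response that differed. Of all 8942 probes detected on every array, 3821 rose and 3122 fell in the mean. Their counts in each line and by the F-test are not given here, so the 14 has no background of like probes.

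The sign turned under centring on always-detected probes for 12 called values, none of them called the other way, and for 15 uncalled values. Those of LINC02076 in the mean and FGF14-AS2 in SKNMC turned under cyclic loess too (0.00457 and 0.0491). Of called values and of uncalled ones that became called, mean changes became 0.034 for FOXD2-AS1, 0.0783 for KCNQ1OT1, 0.216 for LINC00173, 0.181 for LINC01252, 0.131 for LINC01547, 0.171 for LINC02731, 0.0278 for MAPT-IT1, 0.0419 for MCM3AP-AS1, 0.153 for MIAT, 0.0324 for PAX8-AS1, 0.135 for RUSC1-AS1, 0.0775 for STX18-AS1 and 0.152 for ZNF606-AS1. In SKNMC they became 0.0369 for LINC01252, 0.000279 for LINC01547, 0.0686 for MAPT-IT1 and 0.0482 for ZNF606-AS1. The cause was not tested.

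Of 115 values of single RNAs, 95 were called, 62 of these kept direction and call under every setting run and 33 lost the call under at least 1. Single arrays decided the calls of RUSC1-AS1, STX18-AS1, LINC01252, ZNF606-AS1, EIF3J-DT and ZBTB11-AS1. Without SKNMC vehicle replicate 1, LINC01252 and ZNF606-AS1 stood at -0.26 and -0.25 in SKNMC, and without TC71 vehicle replicate 2, EIF3J-DT and ZBTB11-AS1 at -0.28 and -0.34 in TC71. Signal near background limits most of these RNAs: 16.7% of the tested probes were detected on all arrays.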

Other observations

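ITPK1-AS1 averaged 9.82 log2 over all arrays and rose by 0.29 in the mean (limma adjusted p = 0.00014), and RAMP2-AS1 averaged 9.59 and rose by 0.21 (limma adjusted p = 0.014). Neither was called under median centring, at 0.146 (limma adjusted p = 0.12) and 0.0553 (limma adjusted p = 0.63). ITPK1-AS1 rose in TC71 and RDES by 0.61 and 0.49 and stood at 0.25 in SKNMC and -0.19 in TC32, not called. RAMP2-AS1 rose in SKNMC and TC71, by 0.35 and 0.60, and fell in TC32 by 0.43. PAXIP1-DT averaged 7.45, had no call in the mean (0.05), rose in SKNMC by 0.46 and fell in TC32 by 0.49. LINC01018 averaged 6.98 and rose in SKNMC, TC71 and RDES by 0.47, 0.53 and 0.46, with -0.34 in TC32 (limma adjusted p = 0.059). Its mean rise of 0.28 stood at -0.00563 under median centring (limma adjusted p = 0.96). The median annotated span was 6365 bases for RNAs that rose, 6614 for those that fell and 5452 for those not called, a difference that was not tested.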
